A study of Mus musculus with 12 samples.

Results

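The genes described here encode 9 transcription factors of macrophages: Cebpa, Cebpb, Cebpd, Spi1, Maf, Lyl1, Klf2, Klf4 and Bcl6. They were matched by symbol to Ensembl identifiers in a table of 54532 mouse genes, and all 9 were among the 11335 genes tested. The members were chosen on the results of these same libraries, so their levels and differences are given as a description and no p is given for them. RNA was sequenced from 12 libraries in 4 groups of 3. All came from bone marrow of WT mice grown with CMG, a source of M-CSF, the growth factor on which macrophages depend. Untreated macrophages had CMG without RANKL. Untreated osteoclasts were the same kind of culture with RANKL, the cytokine that turns macrophage precursors into bone-resorbing osteoclasts, given as 100 ng/mL in a source label that stands on all 12 libraries, those without RANKL too, while the protocol gives a range of doses up to that one. The LPS-treated macrophages and LPS-treated osteoclasts received 100 ng/mL lipopolysaccharide (LPS, a bacterial outer membrane component sensed through TLR4) for 3 h on day 5. The age of the mice and the number of mice behind each group are not given in the sources used here. Nothing in the labels says that the replicates came from separate animals or cultures, so the spread between them may be technical.

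Macrophage identity is kept by a small set of factors that bind enhancers together. PU.1, the product of Spi1, opens myeloid enhancers, and C/EBP alpha acts with it to set the myeloid programme, while C/EBP beta and C/EBP delta are induced by inflammatory signals and act on many of the same sites. c-MAF, the product of Maf, is tied to mature and anti-inflammatory macrophages. LYL1 is a helix-loop-helix factor of blood progenitors and myeloid cells. KLF2 and KLF4 restrain inflammatory activation in vascular and myeloid cells, and BCL6 is a repressor that limits inflammatory genes. During osteoclast formation PU.1 is kept in use together with NFATc1, the main osteoclast factor, whereas several repressors of NFATc1, among them IRF8 and BCL6, are lost under BLIMP1, the product of Prdm1.

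Values are FPKM, that is, fragments divided by gene length and by a scaling factor of the library, and are therefore comparable between genes by length. Library totals were 15651955 to 20281567 assigned reads. The scaling follows the typical gene, so a change is relative to the typical gene. Rescaled to TPM, the median log2 difference of all genes tested moved to -0.53 for LPS in macrophages, -0.37 for osteoclasts against macrophages without LPS and 0.49 for the interaction. Calls above 0 were then 18.2%, 29.4% and 82.0% of all calls, in place of 52.6%, 49.9% and 47.0%. No called difference of a member changed direction under TPM or quantile scaling. Summed osteoclast markers were at 5.17 to 22.1 FPKM in macrophages and 28300 to 31297 FPKM in osteoclasts. Summed macrophage markers were at 3111 to 3774 FPKM in macrophages and 1742 to 1829 FPKM in osteoclasts. Within that list Cd68, a lysosomal protein shared with osteoclasts, was higher in untreated osteoclasts (670 FPKM in macrophages, 1402 in osteoclasts), while Adgre1 (428 and 33.1), C1qa (1115 and 34.6), Cx3cr1 (142 and 0.486) and Mertk (19.4 and 1.79) were lower. Summed stromal markers were at 25.9 to 36.5 FPKM in macrophages and at most 0.977 FPKM in osteoclasts, and neutrophil markers at 5.41 to 16.0 and at most 1.88 FPKM. Their part in the differences between the cell types was not tested. In bulk RNA, fewer cells of a type and less RNA per cell cannot be told apart.

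One library needs a remark before the results. Replicate 2 of LPS-treated osteoclasts, the library with the fewest reads, held the lowest value of its group for 6 members (Maf, Cebpa, Cebpb, Cebpd, Lyl1 and Bcl6) and the highest for the other 3. The macrophage gene Mrc1, a mannose receptor, was at 3.35, 1.62 and 3.41 FPKM in replicates 1 to 3 of that group, and Lyz2, the lysozyme of macrophages, at 1843, 927 and 1590 FPKM. The part of this in the members' values was not tested. Left out, it moved the log2 LPS difference in osteoclasts most for Cebpd, Cebpb and Maf, where both values are given. Without it that difference was -1.90 for Cebpa, 0.08 for Spi1, -0.61 for Lyl1, -0.74 for Klf2, -0.30 for Klf4 and 0.36 for Bcl6.

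**Figure D1:**
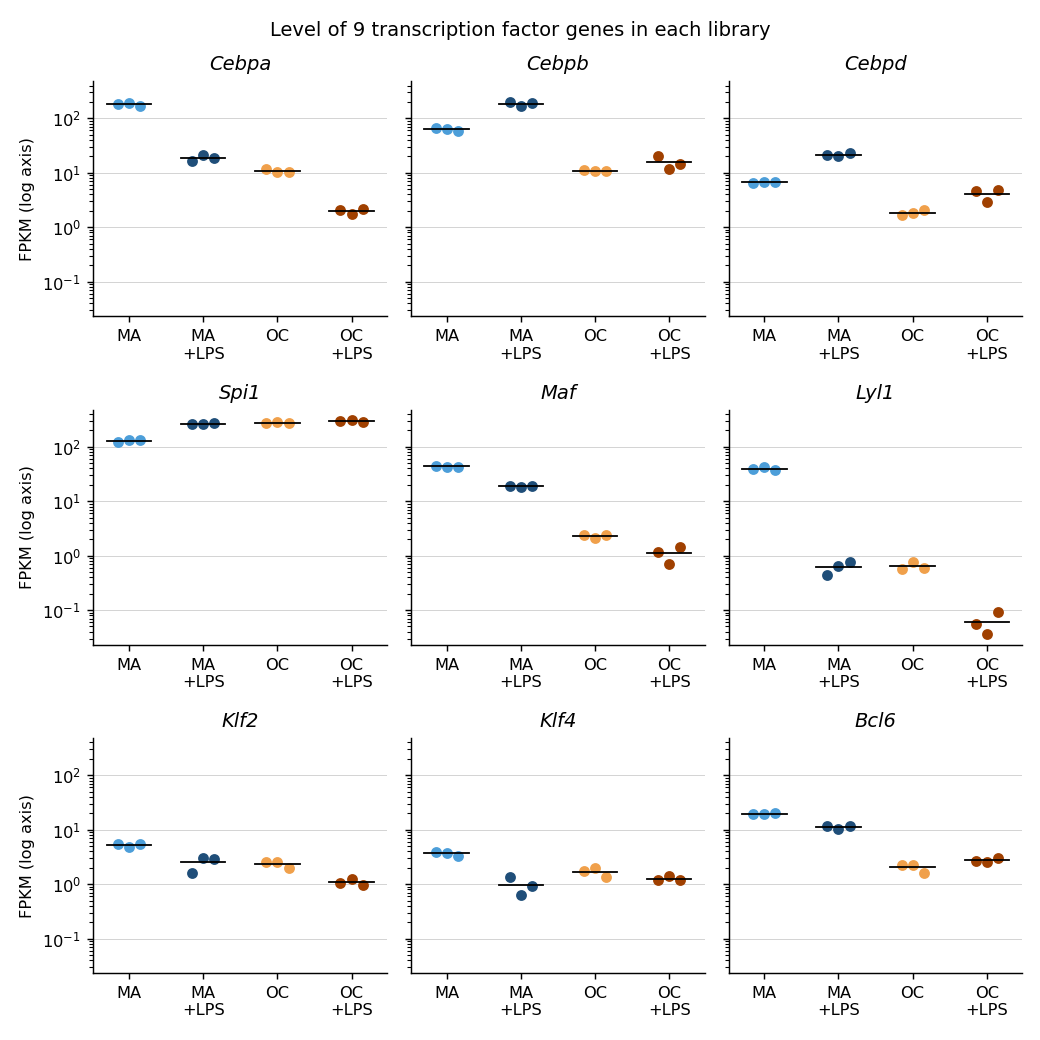
FPKM (log axis) of the 9 factors in each library, by group: MA, untreated macrophages; OC, untreated osteoclasts; +LPS, with LPS for 3 h. Points are libraries and lines are group means. Cebpa, Maf and Lyl1 are highest in untreated macrophages, Cebpb and Cebpd in LPS-treated macrophages, and Spi1 is lowest in untreated macrophages.

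Cebpa was the most abundant of the 9 in untreated macrophages and lost most of its RNA both with LPS and in osteoclasts. It lies on chromosome 7, 35119293 to 35121928 (plus strand, GRCm38, GENCODE M21), and has a single exon. The 3 untreated macrophage libraries held 181, 190 and 172 FPKM, and the 3 with LPS held 16.5, 21 and 18.7. Untreated osteoclasts held 11.6, 10.2 and 10.4 FPKM, and LPS-treated osteoclasts 2.07, 1.72 and 2.20. The 4 groups did not overlap. LPS lowered the mean 9.65-fold in macrophages (log2 difference -3.21, SE 0.09, on log2(FPKM + 1), the scale of all log2 differences below) and 5.36-fold in osteoclasts (-1.97, SE 0.09). Osteoclasts were 16.9-fold below macrophages without LPS (-3.96, SE 0.09) and 9.39-fold below with LPS (-2.72, SE 0.09).

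Cebpb moved the other way with LPS. The gene (chromosome 2, 167688915 to 167690418, plus strand, single exon) was at 67.6, 64.8 and 59.2 FPKM in untreated macrophages and at 199, 168 and 188 FPKM with LPS, with no overlap. The difference was 2.89-fold (log2 difference 1.52, SE 0.14). Osteoclasts held 11.2, 11 and 10.7 FPKM without LPS and 19.9, 11.6 and 14.7 with it. These values did not overlap either, and the log2 difference was 0.43 (SE 0.14), or 0.60 without replicate 2 of the LPS-treated osteoclasts. Cebpb was 5.82-fold lower in osteoclasts without LPS and 12-fold lower with LPS. Of its exon sequence 20.7% is shared with Tmem189 on the opposite strand, and whether reads were counted by strand is not given in the sources used here. Tmem189 was at 36.8 FPKM in untreated macrophages, 15.2 with LPS, and 49.2 and 48.5 in osteoclasts, so its levels ran opposite to those of Cebpb.

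Cebpd was less abundant and followed Cebpb. The gene (chromosome 16, 15887286 to 15891031, plus strand, single exon) was at 6.45, 6.71 and 6.74 FPKM in untreated macrophages and at 21, 19.9 and 23.3 with LPS, a 3.22-fold difference (log2 difference 1.55, SE 0.13). In osteoclasts it was at 1.68, 1.79 and 2.04 FPKM without LPS and at 4.56, 2.86 and 4.83 with LPS, a 2.22-fold difference (0.82, SE 0.13). Without replicate 2 of the LPS-treated osteoclasts the log2 difference was 1.01. The LPS-treated osteoclasts thus stayed below the untreated macrophages in every library. Cebpd shares 15% of its exon sequence with Spidr on the opposite strand, which was at 3.02, 3.64, 0.877 and 0.951 FPKM in untreated and LPS-treated macrophages and untreated and LPS-treated osteoclasts.

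On the deposited scaling, the make-up of the 3 C/EBP genes differed with LPS by far more than their sum. The shares do not depend on the scaling of a library, but the sum does. FPKM of all genes together came to 255852 to 261584 in untreated macrophages and 399796 to 408994 with LPS. Rescaled to TPM, the C/EBP sum of macrophages therefore falls further with LPS than shown here. Summed Cebpa, Cebpb and Cebpd were at 252 ± 12.2 FPKM in untreated macrophages and 225 ± 14.7 with LPS (SD, n = 3). In osteoclasts the sum was 23.5 ± 0.887 FPKM without LPS and 21.5 ± 5.18 with LPS (SD, n = 3). The sums of the LPS-treated macrophages, 208 to 236 FPKM, lay just under those of the untreated ones, 238 to 262 FPKM, and the sums of the osteoclast groups overlapped. Cebpa made up 72.0% ± 0.906 of the sum in untreated macrophages and 8.40% ± 1.56 after LPS, and Cebpb went from 25.4% ± 0.985 to 82.1% ± 1.89. In osteoclasts Cebpa went from 45.5% ± 1.64 to 9.51% ± 1.51 and Cebpb from 46.7% ± 1.08 to 71.5% ± 3.70. The Cebpd share went from 2.64% to 9.51% in macrophages and from 7.82% to 19.0% in osteoclasts. The Cebpa shares of the LPS-treated groups overlapped between the cell types (6.99% to 10.1% and 7.79% to 10.6%), while the sums did not.

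**Figure D2:**
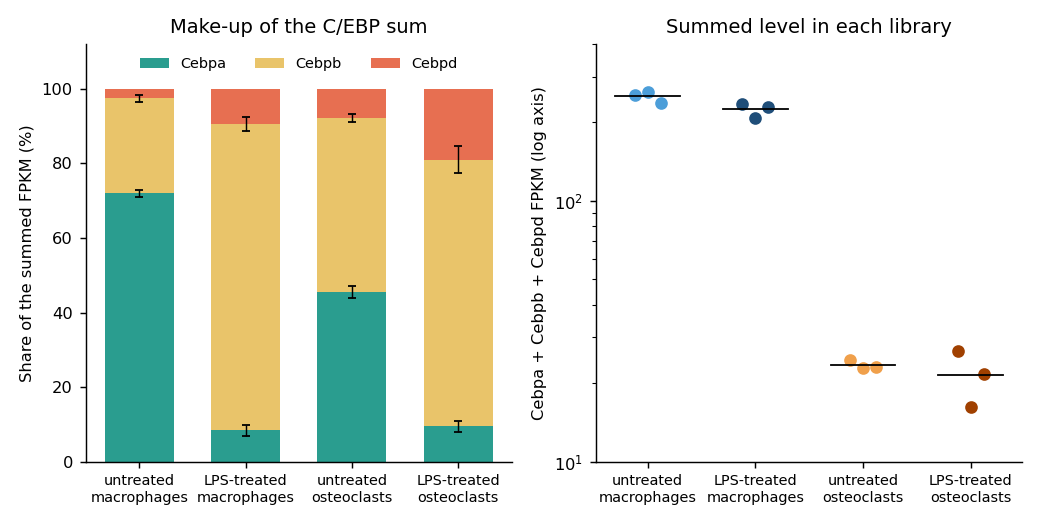
Left, the mean share (%) of Cebpa, Cebpb and Cebpd in their summed FPKM for each group, with SD bars at the upper edges of the Cebpa and Cebpb segments (n = 3). Right, the summed FPKM in each library (log axis) with the group mean as a line. The Cebpa share falls from 72.0% to 8.40% in macrophages and from 45.5% to 9.51% in osteoclasts. On the deposited scaling the sums move from 252 to 225 and from 23.5 to 21.5 FPKM.

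The start regions of Cebpa and Cebpb are shown because these genes answered LPS in opposite directions. Each window runs from 250 bases before to 50 bases after the RefSeq start, 5′ to 3′ along the gene, and capitals mark the KLF letters CCNCNCCC on either strand and the TATA letters TATAAA.
Cebpa (GRCm38.p6, chr7:35119043-35119342, plus strand): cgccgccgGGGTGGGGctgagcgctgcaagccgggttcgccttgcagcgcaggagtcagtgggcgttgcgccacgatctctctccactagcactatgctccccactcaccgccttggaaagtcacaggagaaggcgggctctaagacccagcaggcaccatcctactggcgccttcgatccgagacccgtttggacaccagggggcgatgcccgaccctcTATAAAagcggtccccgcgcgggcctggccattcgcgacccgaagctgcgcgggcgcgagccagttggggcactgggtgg
Cebpb (GRCm38.p6, chr2:167688665-167688964, plus strand): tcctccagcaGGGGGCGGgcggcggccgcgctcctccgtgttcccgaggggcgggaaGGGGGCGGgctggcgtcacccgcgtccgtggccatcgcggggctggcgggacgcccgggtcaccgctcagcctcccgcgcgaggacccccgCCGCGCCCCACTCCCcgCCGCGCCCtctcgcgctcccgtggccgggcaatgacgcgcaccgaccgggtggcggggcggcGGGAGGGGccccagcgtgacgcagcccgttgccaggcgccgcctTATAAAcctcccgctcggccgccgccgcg
The Cebpa window holds 1 KLF match and a TATAAA 30 bases before the start. The Cebpb window holds 6 KLF matches, 2 of which share a base, and a TATAAA 21 bases after the RefSeq start. Across 32851 RefSeq windows of this length 49.5% hold the KLF letters and 13.6% the TATA letters. Searched on both strands, neither window held the C/EBP letters TTGCNNAA (10.8% of all windows), the PU.1 letters GAGGAAGT (3.20%), the AP-1 letters TGANTCA (7.81%), the CRE letters TGACGTCA (1.79%) or the NF-kB motif (4.51%). GC content was 67.3% for Cebpa and 80.7% for Cebpb, against a median of 52.7% over all windows.

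The transcripts of the 3 C/EBP genes differed at their 3′ ends. The pentamer ATTTA, the core of AU-rich elements that shorten the life of inflammatory mRNAs, occurred 7 times in the 2900 bases of the Cebpd 3′ UTR and 0 times in those of Cebpa (1430 bases) and Cebpb (506 bases). Cebpd alone among the 9 held the nonamer TTATTTATT, shown in capitals with 8 bases on each side from its GENCODE M21 transcript (GRCm38, plus strand).
Cebpd 3′ UTR: ttggacatTTATTTATTgtaacaga
Of 10187 tested genes with a 3′ UTR, 8.06% held this nonamer, and the median density of the pentamer was 1.34 per kilobase, against 2.41 in Cebpd. Maf held 7 pentamers in 4316 bases (1.62 per kilobase), Klf2, Klf4 and Bcl6 held 1 each, and Spi1 and Lyl1 held 0. Cebpa, Cebpb and Cebpd also shared a single-exon structure, which 2.24% of tested genes have.

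Counts of called genes in the lists of related genes stand beside the shares over all genes tested. With LPS 36.8% of all genes were called higher and 33.1% lower in macrophages, and 11.1% and 6.59% in osteoclasts. Between osteoclasts and macrophages these shares were 38.8% and 39.0% without LPS and 40.9% and 43.0% with LPS. Among the remaining C/EBP genes, Cebpg, a partner of the other C/EBP proteins, and Ddit3, the stress-induced CHOP, both fell with LPS in macrophages. In osteoclasts their log2 differences of -0.15 and -0.26 did not pass, although that of Ddit3 passed without replicate 1 or 3 of the LPS-treated macrophages, with only the groups compared (limma adjusted p 0.0385, 0.0126 and 0.0421) and after quantile normalization. Cebpe, a factor of granulocytes, was below the filter. Cebpg fell from 9.96 ± 0.0412 to 3.63 ± 0.352 FPKM (SD, n = 3), by 1.25 on the log2 scale (SE 0.07, limma adjusted p 5.71e-09). Ddit3 was 2.52-fold higher in osteoclasts than in macrophages without LPS (limma adjusted p 2.94e-07), opposite to the 3 C/EBP members.

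A list of C/EBP beta and C/EBP delta targets holds genes known to be induced by LPS and was chosen with these data known, so that its rise with LPS is no separate evidence. It rose in 6 of 6 tested cases in macrophages and 4 of 6 in osteoclasts, with median log2 differences of 5.80 and 2.76. Il6, which encodes interleukin 6, rose from 0.0117 to 133 FPKM in macrophages and from 0 reads to 4.86 FPKM in osteoclasts (log2 differences 7.05 and 2.53, limma adjusted p 3.66e-13 and 4.55e-08). Saa3, an acute-phase protein, reached 101 ± 24.2 FPKM in macrophages and 7.43 ± 2.13 in osteoclasts (SD, n = 3). Nos2, the inducible nitric oxide synthase, reached 59.1 ± 10.5 and 8.35 ± 2.57 FPKM. Without LPS, 1 of the 6 (Ptgs2) passed between the cell types. That count was 2 without replicate 2 of the LPS-treated macrophages and 3 of 7 under TPM, and Saa3 passed with a pseudocount of 0.1 (log2 difference -1.34). With LPS all 6 were lower in osteoclasts.

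Spi1 was the only member higher in osteoclasts than in macrophages without LPS. It lies on chromosome 2, 91082390 to 91115756 (plus strand). Untreated macrophages held 124, 133 and 132 FPKM, and LPS-treated macrophages 259, 257 and 270. Untreated osteoclasts held 269, 286 and 278 FPKM and LPS-treated osteoclasts 297, 308 and 291. The untreated macrophages stood apart from the other 9 libraries, which lay between 257 and 308 FPKM. The LPS difference was 2.02-fold in macrophages (log2 difference 1.01, SE 0.04) and 1.08-fold in osteoclasts (0.11, SE 0.04), and the libraries did not overlap in either. Osteoclasts were 2.14-fold above macrophages without LPS (1.10, SE 0.04) and 1.14-fold above with LPS (0.19, SE 0.04). After rescaling to TPM, which moves all macrophage LPS differences down, the LPS difference of Spi1 in macrophages was 0.37. As a label for the 9 genes, macrophage identity therefore does not describe Spi1 in these libraries, since its RNA was higher in osteoclasts.

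Of the 4 tested genes among the relatives and partners of PU.1, 3 rose and 0 fell with LPS in macrophages, and 0 rose and 1 fell in osteoclasts. Without LPS 3 were lower and 1 higher in osteoclasts than in macrophages. The 1 higher was Spic, a close relative of Spi1 (log2 difference 0.87, SE 0.13, limma adjusted p 4.22e-05), which is named after its values were seen. Among the 3 that rose in macrophages, Cbfb, the partner of RUNX1, had a log2 difference of 0.49 as deposited but -0.15 under TPM and -0.22 under quantile scaling. Under TPM 2 rose and 2 fell of 5 tested, and under quantile scaling 2 rose and 1 fell of 4. Irf8, the interferon regulatory factor that binds composite sites with PU.1 and restrains osteoclast formation, was at 23.4, 21.4 and 23.1 FPKM in untreated macrophages and at 88.5, 96.8 and 100 with LPS. In osteoclasts Irf8 was at 1.16, 1.08 and 1.01 FPKM, and at 0.752, 0.506 and 0.979 with LPS. Its log2 LPS difference there was -0.26 and did not pass (limma adjusted p 0.0569). Irf8 was called lower under TPM (-0.46), quantile scaling (-0.29), a pseudocount of 0.1 or a mean filter of 5 FPKM. Irf8 was also called lower without replicate 3 of the LPS-treated osteoclasts. Its log2 difference between osteoclasts and macrophages was -3.50 without LPS and -5.79 with LPS (SE 0.09 for both, limma adjusted p 3.76e-12 and 5.47e-14). Of 11 myeloid targets of PU.1 and C/EBP factors, 9 were lower and 2 higher in osteoclasts without LPS, with a median log2 difference of -2.46, against 0.00 over all genes tested; under TPM 10 were lower and 0 higher. With LPS in macrophages 7 of the 11 rose and 1 fell, or 4 rose and 6 fell under TPM and under quantile scaling. Fcgr1, the high-affinity IgG receptor, was at 45.1 ± 2.42 FPKM in macrophages and 0.429 ± 0.0830 in osteoclasts (SD, n = 3). Cd14, the LPS co-receptor, was 6.71-fold lower in osteoclasts without LPS and 17.2-fold lower with LPS, and Cybb, the NADPH oxidase subunit, 6.20-fold and 12.2-fold lower. Spi1 itself was higher in the same osteoclast libraries.

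Maf was high in untreated macrophages and lower in each of the other groups. The gene (chromosome 8, 115682942 to 115707794, minus strand) was at 44.4, 43.2 and 42.7 FPKM in untreated macrophages and at 19.4, 18.0 and 19.4 with LPS. Osteoclasts held 2.44, 2.08 and 2.41 FPKM, and 1.19, 0.693 and 1.47 with LPS. No groups overlapped. LPS lowered the mean 2.29-fold in macrophages (log2 difference -1.16, SE 0.11) and 2.06-fold in osteoclasts (-0.66, SE 0.11, or -0.51 without replicate 2 of the LPS-treated osteoclasts). Osteoclasts were 18.8-fold lower than macrophages without LPS and 16.9-fold lower with LPS. The smaller log2 difference in osteoclasts rests partly on the added 1 FPKM: the interaction was 0.50, and 0.16 with a pseudocount of 0.1.

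The small MAF genes, which lack the activation domain of the large MAF proteins, split. Mafk rose from 4.31 ± 0.386 to 40.7 ± 2.08 FPKM in macrophages with LPS (SD, n = 3), and was at 3.67 ± 0.0626 and 4.46 ± 0.115 in osteoclasts. Maff rose with LPS in both cell types, 4.06-fold and 2.26-fold (limma adjusted p 1.20e-09 and 3.91e-06). Mafg fell 3.06-fold in macrophages and was at 19.9 and 20.2 FPKM in osteoclasts without and with LPS.

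Genes linked to c-MAF in macrophages were lower in osteoclasts in 4 of 5 tested cases, and 2 rose and 1 fell with LPS in macrophages, or 1 rose and 2 fell of 6 tested under TPM, and 1 rose and 3 fell after quantile normalization. Without replicate 2 of the LPS-treated osteoclasts 4 rose. Mrc1 was among those 4 (log2 difference 0.22) and among the 3 that fell after quantile normalization (-0.58, limma adjusted p 0.00418), and it was not called in the fit reported. Mrc1 was at 293 ± 2.68 FPKM in untreated macrophages and 2.57 ± 0.209 in osteoclasts (SD, n = 3), 114-fold lower (limma adjusted p 4.75e-12). Cd163, a haemoglobin scavenger receptor, fell with LPS in macrophages from 6.10 ± 0.142 to 3.11 ± 0.154 FPKM and was at 0.108 ± 0.0185 in osteoclasts. Il10, the anti-inflammatory cytokine whose gene c-MAF activates, rose from 0.761 ± 0.350 to 82.6 ± 1.53 FPKM with LPS in macrophages while Maf fell (limma adjusted p 1.43e-11). In osteoclasts Il10 went from 0.464 ± 0.255 to 1.70 ± 0.395 FPKM (limma adjusted p 0.00178).

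Lyl1 was highest in untreated macrophages and low in the other groups. The gene (chromosome 8, 84701457 to 84704715, plus strand) was at 39.5, 42.8 and 36.7 FPKM in untreated macrophages and at 0.435, 0.633 and 0.751 with LPS, a 65.4-fold lower mean (log2 difference -4.66, SE 0.08). These values rest on 1471 to 1811 reads per library without LPS and 10 to 19 with LPS. Untreated osteoclasts held 0.572, 0.756 and 0.588 FPKM, 62.1-fold below untreated macrophages, and thus overlapped the LPS-treated macrophages. LPS-treated osteoclasts held 0.0561, 0.0360 and 0.0913 FPKM, or 6 reads in all against 60 without LPS. From these reads the level was 10.2-fold lower with LPS, with an exact 95% interval of 4.43 to 28.9 that covers counting error only. Against LPS-treated macrophages it was 9.82-fold lower (exact 95% interval 4.18 to 28.1). On the log2(FPKM + 1) scale the LPS difference in osteoclasts was -0.63, which understates a change at this level.

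The start region of Lyl1 is shown because it had the largest LPS difference of the 9, in the same window and with the same letters in capitals as above.
Lyl1 (GRCm38.p6, chr8:84701207-84701506, plus strand): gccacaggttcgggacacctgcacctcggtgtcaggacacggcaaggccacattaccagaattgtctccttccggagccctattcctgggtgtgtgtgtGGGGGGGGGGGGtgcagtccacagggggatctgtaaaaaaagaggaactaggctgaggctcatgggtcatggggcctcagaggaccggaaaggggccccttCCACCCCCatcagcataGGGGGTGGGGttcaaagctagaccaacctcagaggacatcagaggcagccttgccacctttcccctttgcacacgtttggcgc
It holds 8 matches to the KLF letters, 5 of which overlap in a run of G, and none to the TATA, C/EBP, PU.1, AP-1, CRE or NF-kB letters. Its GC content was 60.0%. Of the other members with a RefSeq window, Klf4 held 9 KLF matches, Klf2 held 4, and the 2 Bcl6 windows held 0. All 6 members with a window lacked the C/EBP, PU.1, AP-1, CRE and NF-kB letters within it.

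LYL1 binds DNA with E proteins and is bridged by LMO2 and LDB1, while ID proteins take E proteins away from DNA. Of 9 tested genes of this list, 7 fell and 1 rose with LPS in macrophages, 4 fell and 0 rose in osteoclasts, and 8 were lower and 1 higher in osteoclasts than in macrophages without LPS. The call of Ldb1 in osteoclasts (-0.23) was lost when any untreated osteoclast library, or replicate 1 or 2 of the LPS-treated osteoclasts, was left out. Lmo2 was at 45.2 ± 1.76 FPKM in untreated macrophages, 25.5 ± 1.19 with LPS, and 4.08 ± 0.493 and 3.79 ± 0.167 in osteoclasts (SD, n = 3). Tal1, the closest relative of Lyl1, was at 10.4 ± 0.535, 4.87 ± 0.681, 1.52 ± 0.354 and 1.17 ± 0.0918 FPKM in the same order. Ldb1 fell 2.51-fold with LPS in macrophages (limma adjusted p 5.35e-09). Tcf4, an E protein gene, was the 1 that rose, from 3.79 ± 0.0644 to 8.77 ± 0.461 FPKM (limma adjusted p 1.19e-08).

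All 3 ID genes fell with LPS in macrophages, and Id1 and Id3 in osteoclasts. Id1 was at 124, 118 and 100 FPKM in untreated macrophages and at 4.93, 5.20 and 4.72 with LPS, 23.0-fold lower (log2 difference -4.27, SE 0.08, limma adjusted p 6.43e-13). Osteoclasts held 2.20, 1.73 and 2.08 FPKM of Id1, and with LPS 1 read was found in the 3 libraries together. Id2 fell 2.69-fold and Id3 3.09-fold with LPS in macrophages (limma adjusted p 1.06e-07 and 8.52e-07). In osteoclasts Id3 fell 1.69-fold (limma adjusted p 0.00865), a call that was lost when only the groups compared were fitted (limma adjusted p 0.0778), and Id2 was at 10.7 ± 1.44 FPKM without and 11.2 ± 1.67 with LPS (SD, n = 3). Without LPS, Id2 was 9.57-fold and Id3 7.73-fold lower in osteoclasts than in macrophages.

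Klf2 and Klf4 were the least abundant members in untreated macrophages. Klf2 (chromosome 8, 72319033 to 72321656, plus strand) was at 5.42, 4.72 and 5.49 FPKM in untreated macrophages and at 1.61, 3.01 and 2.89 with LPS. In osteoclasts it was at 2.52, 2.60 and 2.01 FPKM, and at 1.04, 1.23 and 0.979 with LPS. With LPS it was 2.08-fold lower in macrophages (log2 difference -0.85, SE 0.14) and 2.19-fold lower in osteoclasts (-0.69, SE 0.14), and no groups within a cell type overlapped. The difference between these effects, 0.16 (SE 0.20), was the smallest in size of the 9 in the fit reported, though that of Cebpd was -0.08 under TPM.

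Klf4 (chromosome 4, 55527143 to 55532466, minus strand) was at 3.85, 3.79 and 3.34 FPKM in untreated macrophages and at 1.36, 0.637 and 0.934 with LPS, 3.75-fold lower (log2 difference -1.25, SE 0.12). Osteoclasts held 1.76, 1.94 and 1.37 FPKM, and 1.18, 1.40 and 1.19 with LPS, and these groups overlapped. Klf4 was 2.17-fold lower in osteoclasts without LPS. With LPS the groups of the 2 cell types overlapped, with means of 0.978 FPKM in macrophages and 1.26 in osteoclasts and a log2 difference of 0.20 (SE 0.12), or 0.34 without replicate 1 of the LPS-treated macrophages and 0.42 under TPM.

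Of 8 other KLF genes tested, 5 rose and 2 fell with LPS in macrophages, against 36.8% and 33.1% of all genes, with a median log2 difference of 0.70, though under TPM, where 9 passed the filter, 4 rose and 5 fell, with a median of -0.40. In osteoclasts 4 rose and 0 fell, against 11.1% and 6.59%, with a median of 0.06, and 2 to 3 rose when any 1 of the 12 libraries was left out. Under TPM, with 9 tested, and after quantile normalization, with 8 tested, 2 rose and 1 fell in osteoclasts. Klf6, a KLF gene induced by inflammatory signals, rose from 53.2 ± 0.541 to 231 ± 2.83 FPKM in macrophages (SD, n = 3, limma adjusted p 2.87e-12). Klf7 rose 6.81-fold and Klf3, a repressor, 2.39-fold (limma adjusted p 6.66e-11 and 1.04e-09). Klf10, a gene induced by TGF-beta, fell 6.13-fold (limma adjusted p 1.34e-09). Genes linked to KLF2 and KLF4 were tested in 2 of 5 cases, and both fell with LPS in macrophages. S1pr1, the receptor for sphingosine 1-phosphate and a KLF2 target in T cells, was at 61.5 ± 2.53 FPKM, and at 4.36 ± 0.302 with LPS. In osteoclasts S1pr1 was at 1.75 ± 0.0392 and 0.277 ± 0.0577 FPKM, 6.35-fold lower with LPS (limma adjusted p 5.36e-08). Thbd, the thrombomodulin gene, fell 10.8-fold in macrophages, from 3.92 ± 0.513 to 0.363 ± 0.194 FPKM (limma adjusted p 1.92e-08).

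Bcl6 was the only member that differed in opposite directions with LPS in the 2 cell types. The gene (chromosome 16, 23965052 to 23988852, minus strand) was at 19.4, 19.6 and 19.9 FPKM in untreated macrophages and at 11.8, 10.3 and 11.7 with LPS, 1.74-fold lower (log2 difference -0.75, SE 0.09). Osteoclasts held 2.26, 2.22 and 1.61 FPKM, and 2.71, 2.55 and 3.06 with LPS, 1.37-fold higher (0.32, SE 0.09). The groups did not overlap in either cell type. The osteoclast difference was 0.22 without replicate 3 of the untreated osteoclasts and 0.33 or 0.27 without replicate 1 or 3 of the LPS-treated osteoclasts. Osteoclasts were 9.67-fold below macrophages without LPS and 4.07-fold below with LPS.

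Of 9 tested co-repressor genes of BCL6, 9 were lower in osteoclasts without LPS, or 8 to 9 with a library left out, against 39.0% of all genes, and their median log2 difference was -0.50. Of the same genes 2 rose and 4 fell with LPS in macrophages, or 1 and 8 under TPM. Bcor, which binds the BTB domain of BCL6, rose from 14.4 ± 1.27 to 43.8 ± 1.47 FPKM with LPS in macrophages (SD, n = 3, limma adjusted p 3.21e-10). Of 7 genes known to be repressed by BCL6, 4 rose and 2 fell with LPS in macrophages, against 36.8% and 33.1% of all genes, and 4 were higher and 3 lower in osteoclasts without LPS, against 38.8% and 39.0%. Ccl2 and Ccl7, chemokines for monocytes, rose 26.8-fold and 67.1-fold with LPS in macrophages and 8.31-fold and 21.7-fold in osteoclasts. Ccnd2, which encodes cyclin D2, rose 10.3-fold in macrophages, from 4.63 ± 0.0835 to 47.6 ± 2.13 FPKM (limma adjusted p 2.59e-13), and was at 0.0101 and 0.129 FPKM in osteoclasts.

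Of 3 osteoclast factors, Prdm1 and Nfatc1 were higher and Mitf lower in osteoclasts without LPS. Prdm1 was at 2.18, 1.89 and 2.25 FPKM in untreated macrophages and at 20.5, 22.1 and 19.2 with LPS, 9.78-fold higher (limma adjusted p 9.55e-13). Osteoclasts held 19.5, 19.4 and 19.7 FPKM, and 19.6, 20.2 and 20.5 with LPS, so LPS-treated macrophages overlapped the osteoclast level of Prdm1. Nfatc1 did not follow: it was at 7.04 ± 0.0806 FPKM in untreated macrophages and 4.66 ± 0.0803 with LPS, against 114 ± 0.116 and 134 ± 7.07 FPKM in osteoclasts (SD, n = 3). Mitf, which encodes a factor that acts with PU.1 and NFATc1 on osteoclast genes, was at 12.2, 12.6 and 13.4 FPKM in untreated macrophages and 66.0, 63.7 and 64.1 with LPS, 5.07-fold higher (limma adjusted p 2.37e-11). In osteoclasts its log2 difference from macrophages was -0.31 without LPS and -2.23 with LPS (limma adjusted p 0.000995 and 1.24e-11).

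Over the 9 members, 3 were called higher and 6 lower with LPS in macrophages, where 36.8% of all genes tested were called above 0 and 33.1% below. In osteoclasts 2 were called higher (Cebpd and Bcl6) and 4 lower (Cebpa, Maf, Lyl1 and Klf2), where 11.1% of all genes were called above 0 and 6.59% below. Cebpb, Spi1 and Klf4 were not called there. The call of Bcl6 was lost without replicate 3 of the untreated osteoclasts, without replicate 1 or 3 of the LPS-treated osteoclasts, under TPM, with no filter and with only the groups compared. Cebpb was called without replicate 2 of the LPS-treated osteoclasts, at a mean of at least 5 FPKM and with voom. Between osteoclasts and macrophages without LPS, 1 member was called higher and 8 lower, where 38.8% of all genes were called above 0 and 39.0% below. With LPS 1 was called higher and 7 lower, against 40.9% and 43.0% of all genes, and Klf4 was also called higher under TPM or without replicate 1 of the LPS-treated macrophages. For the interaction, which subtracts the macrophage LPS difference from the osteoclast one, 5 were above 0 and 3 below, against 26.6% and 30.0% of all genes. Median log2 differences of the members were -0.85 and -0.25 for LPS in macrophages and osteoclasts and -2.44 and -1.70 for osteoclasts against macrophages without and with LPS. Over all genes tested these medians were 0.02, 0.01, 0.00 and -0.02. The 2 LPS effects have separate controls, while each shares libraries with the comparisons between the cell types. Because the members were chosen on these contrasts, the counts are a description and nothing is read from them.

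**Figure D3:**
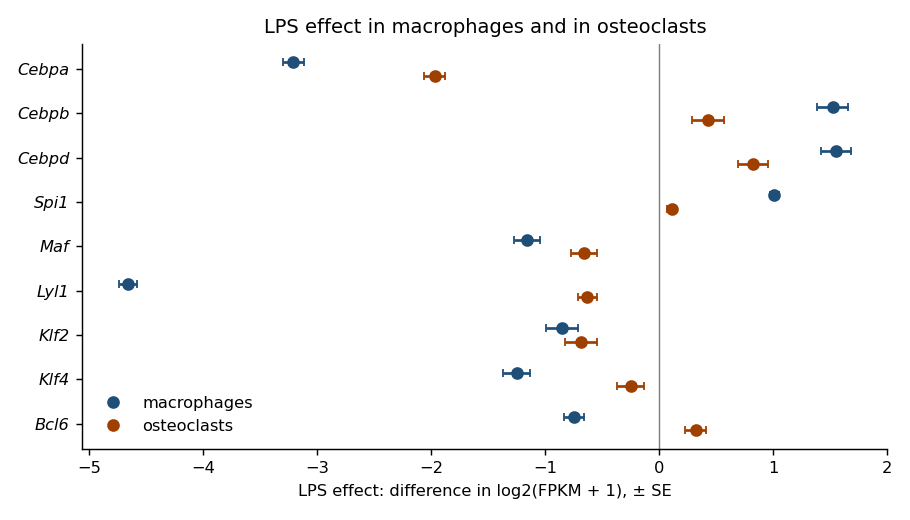
LPS effect on each factor, as the difference in log2(FPKM + 1) ± SE, in macrophages and osteoclasts (3 libraries per group). Points are the differences and bars their SE. Cebpa and Lyl1 lie farthest to the left in macrophages, at -3.21 and -4.66, and Bcl6 has its points on opposite sides of 0, at -0.75 and 0.32.

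The order of the levels was different in each group. In untreated macrophages it ran Cebpa (181 FPKM), Spi1 (129), Cebpb (63.9), Maf (43.5), Lyl1 (39.7), Bcl6 (19.6), Cebpd (6.63), Klf2 (5.21) and Klf4 (3.66), and only the neighbours Maf and Lyl1 overlapped between libraries. With LPS it ran Spi1 (262 FPKM), Cebpb (185), Cebpd (21.4), Maf (18.9), Cebpa (18.8), Bcl6 (11.3), Klf2 (2.50), Klf4 (0.978) and Lyl1 (0.606). Cebpa and Lyl1 thus moved down in this order and Cebpd moved up, with Maf overlapping Cebpa and Klf4 overlapping Lyl1. In untreated osteoclasts Spi1 (278 FPKM) was followed by Cebpb (11), which overlapped Cebpa (10.7). Klf2, Maf, Bcl6, Cebpd and Klf4 followed between 2.38 and 1.69 FPKM, each overlapping its neighbour, and Lyl1 was lowest at 0.639. In LPS-treated osteoclasts Spi1 (299 FPKM) was followed by Cebpb (15.4) and Cebpd (4.08). The remaining 6 had means under 3 FPKM, and the highest of them, Bcl6 (2.77), overlapped Cebpd.

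Across the 12 libraries the members fell into groups of like pattern, given as Pearson r on log2(FPKM + 1) and as a description, since the libraries share 4 group means. Cebpb and Cebpd went together (r = 0.96), as did Maf and Bcl6 (0.97), Cebpa and Klf2 (0.96), Cebpa and Lyl1 (0.93) and Lyl1 and Klf4 (0.90). Spi1 ran against Lyl1 (-0.99) and Cebpa (-0.94). Cebpb was nearly unrelated to Klf4 (-0.03). Among 6423 other genes whose mean reached 5 FPKM, those most like each member were as follows. For Cebpa they were Arl4c (0.996), Id1 (0.991) and Slc36a1 (0.991). For Cebpb they were Ugcg, Clec4d and Timp1 (all 0.998), and for Cebpd Srgn (0.998), Cd14 and Cybb (both 0.996). Spi1 was closest to Psmd8 (0.998), Oaf (0.997) and Jdp2 (0.996), and Maf to Tgfbi (0.997), Man1a2 (0.997) and Hmox1 (0.996). Lyl1 was closest to Rap2a (0.997), Angptl2 (0.996) and Nceh1 (0.995). Bcl6 was closest to Rnf141, Cdca3 (both 0.992) and Tmpo (0.991). Klf4 was closest to Slc25a45 (0.973), Zbtb7b (0.968) and Cebpg (0.963), and Klf2 to Dnase2a (0.954), Vcpkmt (0.953) and Derl1 (0.951). Such likeness was common for Cebpb, with 1191 genes over 0.9, and less so for Klf2, with 62.

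**Figure D4:**
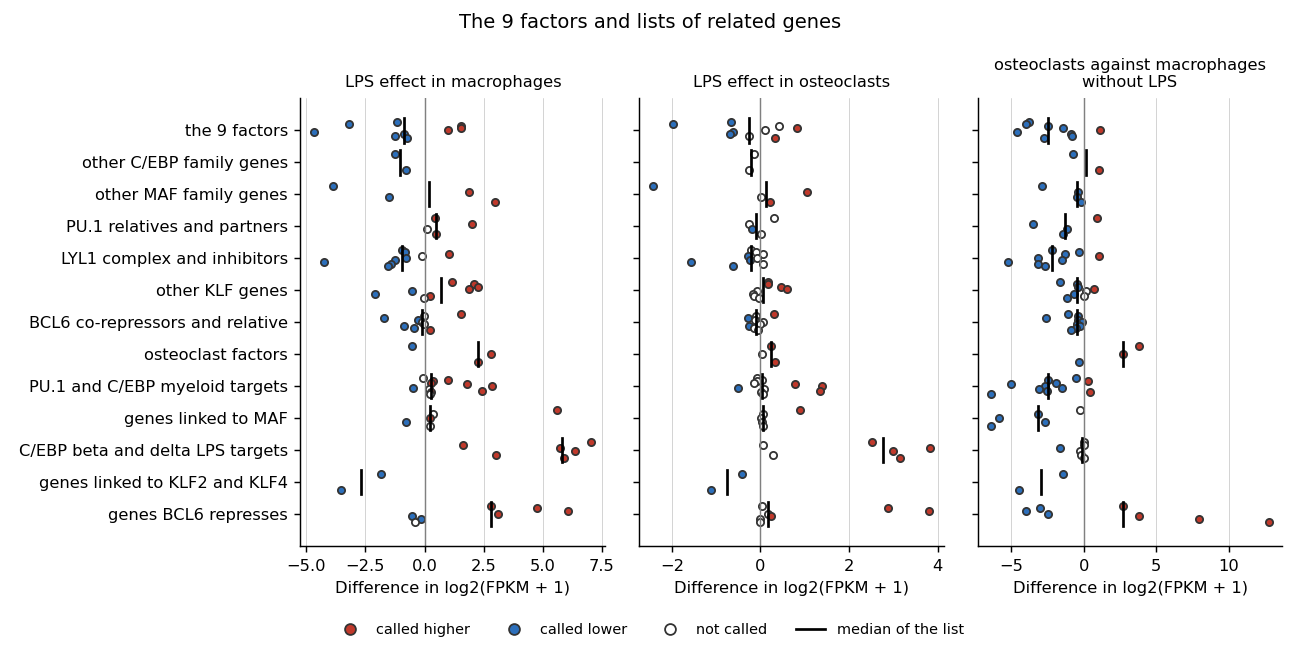
Differences in log2(FPKM + 1) for the 9 factors and for each list of related genes, in 3 comparisons. Each point is a tested gene, filled red or blue where called higher or lower, and the bar is the list's median. In macrophages with LPS the C/EBP beta and delta targets have a median of 5.80, and in osteoclasts without LPS the LYL1 list has a median of -2.18.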

How the data were processed

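RNA was sequenced in 12 libraries, 3 for each of 4 groups taken from the sample titles. The authors deposited FPKM values for 54532 Ensembl genes. Per the submitters' processing notes, fastp, STAR, featureCounts and DESeq2 were used with build mm10, and their versions and roles are not given in the sources used here. In the deposited FPKM, values of a gene were whole multiples of a step in each library. With merged exon lengths of GENCODE M21, whole reads (tolerance 0.02 of a read) were recovered for 96.8% of the 25854 genes above 0, including all 9 members. For the rest, the smallest counts that were whole in every library were used. Such a search can succeed by itself where few libraries hold reads, so these counts are less certain. The scaling factors equalled median-of-ratios size factors times the geometric mean of the read totals. No label gives either point, and both are read from the values.

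Genes that reached 1 FPKM in 3 or more libraries were tested with limma 3.58.1 in R 4.3.3, with a variance trend, on log2(FPKM + 1). All 12 libraries entered 1 fit of 4 group means. Tests were two-sided, and the Benjamini-Hochberg adjustment covered all 11335 genes. A gene was called at an adjusted p under 0.05. On simulated data with known changes the fit was tested before use. The p-values measure the spread between these libraries. Fold changes in the text are ratios of mean FPKM.

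The members and lists were chosen with earlier results of these data known. List genes reported as changed were called with a log2 difference of at least 1 in some comparison, apart from Spic, and others may be named where not called. Some genes of the lists are counted but not reported here by name. The genes most like a member were the 3 with the highest Pearson r over the 12 libraries. Other settings were TPM, quantile values, a pseudocount of 0.1, a filter at a mean of 5 FPKM or none, only the groups compared, a replicate block, voom on the recovered reads, and each library left out. Promoter windows come from RefSeq (GRCm38.p6), where 6 of 9 members matched, and were searched on both strands. Tables and figures were made with Python 3.11.15, pandas 2.3.3, SciPy 1.17.1, bedtools 2.31.1 and matplotlib 3.10.9. Whether counting used strand is not given in the sources used here. Overlapping exons of genes on opposite strands therefore make the values of Cebpb, Cebpd and, for under 6% of their exons, Maf, Cebpa, Bcl6 and Lyl1 uncertain.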

Additional observations from a re-analysis of the deposited data

Results flagged for a closer look

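Bcl6 was lower with LPS in every macrophage library and higher in every osteoclast library, and the log2 difference between these effects was 1.07. That difference is given untested, since Bcl6 was chosen on these data. Every other value here is an interaction on the log2(FPKM + 1) scale, the osteoclast LPS effect less the macrophage one, that passed limma at an adjusted p under 0.05. This scale understates changes of low genes, and many of these genes were low in osteoclasts.

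Interactions above 0 stood mostly with genes that fell with LPS in macrophages. In the MAF and C/EBP families they included 1.54 for Mafg, 1.10 for Cebpg and 0.54 for Ddit3. In the LYL1 list 7 of 9 were called above 0. They included 2.70 for Id1, 1.46 for Id2, 0.92 for Id3, 1.00 for Ldb1, 0.75 for Tal1 and 0.72 for Lmo2. Klf10 had 1.92, Cd163 0.82, S1pr1 2.43 and Thbd 1.45, and Nfatc1 had 0.74. The value for Id1 was 0.28 with a pseudocount of 0.1 and no longer passed (limma adjusted p 0.277), and with voom it turned to -1.33 (adjusted p 0.231), so its direction depends on the scale.

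Interactions below 0 included -2.75 for Mafk, -0.84 for Maff, -2.29 for Irf8, -0.48 for Cbfb and -0.97 for Tcf4. Among the other KLF genes 5 of 8 were called below 0, and they included -1.94 for Klf6, -1.78 for Klf7 and -0.99 for Klf3. Bcor had -1.24, Prdm1 -2.75 and Mitf -1.92. Among targets they included -1.43 for Cd14, -1.06 for Cybb, -1.03 for Fcgr1, -4.70 for Il10, -4.53 for Il6, -3.35 for Saa3 and -2.74 for Nos2. Ccl2 had -1.87, Ccl7 -2.23 and Ccnd2 -2.95. As ratios of means, Fcgr1 was 3.57-fold higher with LPS in macrophages and 3.49-fold in osteoclasts, and Ccnd2 10.3-fold and 12.8-fold, from 0.429 and 0.0101 FPKM in untreated osteoclasts. The interaction of Fcgr1 did not pass with a pseudocount of 0.1 (-0.28), TPM (-0.02), quantile normalization (-0.35) or voom (-0.06). With voom those of Ccnd2 (-0.04), Saa3 (-1.16) and Nos2 (-5.05) did not pass either. The interaction of Cbfb turned to 0.09 under TPM and 0.16 after quantile normalization and did not pass (limma adjusted p 0.326 and 0.0943). Under TPM those of Maff (-0.29) and Cybb (-0.45) did not pass, nor did that of Cybb after quantile normalization (-0.27).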

How the results depend on the processing

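Of 881 values of the members under the alternatives, 865 kept their side of the threshold, 10 lost and 6 gained a call, and no called value reversed. A change of sign between values that were both not called is counted as kept. Since the members were chosen on these data, their calls are a description. The count of members called higher with LPS in osteoclasts, 2 in the fit reported, was 1 with no filter, 1 after rescaling to TPM and 1 with only the groups compared, and between 1 and 3 with a library left out, with the calls of Bcl6 and Cebpb deciding it. The count called higher in osteoclasts with LPS, 1 in the fit reported, was 2 after rescaling to TPM and 1 to 2 with a library left out. The interaction of Cebpd was -0.08 after rescaling to TPM, that of Cebpb was -0.33 after quantile normalization and that of Maf was 0.16 with a pseudocount of 0.1 and 0.13 with voom. At a mean of at least 5 FPKM fewer genes were tested, and the calls over all genes were 4851 in place of 7921 for LPS in macrophages, 5427 in place of 8822 and 5694 in place of 9509 for osteoclasts against macrophages without and with LPS, and 4018 in place of 6413 for the interaction. Reversed values were the LPS effect on Cbfb in macrophages after rescaling to TPM (-0.15) and quantile normalization (-0.22) with its interaction (0.09 and 0.16), the interaction of Id1 with voom (-1.33), where 1 read stood in the LPS-treated osteoclasts, and, after quantile normalization, Prdm1 between the cell types with LPS (0.19), the LPS effect on Mrc1 in macrophages (-0.58) and its interaction (0.61). Their cause was not tested. Libraries of the same replicate number deviated together only weakly: of 18 such pairs 1 correlated above 0.1 (range -0.07 to 0.104). With 3 libraries per group this cannot exclude pairing by number, which the labels do not give. With a replicate block 3 members were called higher with LPS in osteoclasts, Cebpb (0.43) being added. Depth limits Lyl1 in the LPS-treated osteoclasts, with 1 to 3 reads per library.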
